A study of Homo sapiens with 6 samples.

Results

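Read counts on the rows of 6 genes of the Aurora kinase system were followed through S phase and G2 in human RPE-1 cells. These were the kinase gene AURKA, its activator TPX2 and the 4 subunits of the chromosomal passenger complex, AURKB, INCENP, CDCA8 and BIRC5. The genes were chosen by name, through their Ensembl IDs, with earlier results of these data known. All 6 of 6 were found among the 60252 IDs of the count table, and all 6 were among the 13510 features that passed the filter on low counts.

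RPE-1 is a retinal pigment epithelial line immortalised with telomerase. Cells were held at the start of S phase by 2 mM thymidine for 24 h and released by 3 washes, and from 1 h after the wash they received AZ20, an inhibitor of the checkpoint kinase ATR, at 2 µM, or its solvent DMSO. The study's design text asks for genes whose transcription depends on ATR. RNA was sequenced with a stranded mRNA kit.

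The 6 conditions, with their labels, were as follows. Cells labelled 4hr_release_ATRi (4 h ATRi; 3 libraries) had AZ20 for 3 h and were collected 4 h after the wash, in late S phase per the design text. Cells labelled 4hr_release_DMSO (4 h DMSO; 3 libraries) had the solvent for the same time. Cells labelled 6hr_release_ATRi (6 h ATRi; 2 libraries) and 6hr_release_DMSO (6 h DMSO; 3 libraries) had 5 h of AZ20 or DMSO and were collected at 6 h, in G2 per the design text. Cells labelled G1_S_arrested (3 libraries) stayed in thymidine, and cells labelled Cycling (3 libraries) were not synchronised. All released cells, the DMSO controls included, had passed through the thymidine block. The column letters A, B and C were read as the 3 independent experiments of the design text, which the labels do not state. Experiment C of 6 h ATRi is not analysed here.

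The Aurora kinases are serine and threonine kinases of mitosis. Aurora A works at centrosomes and the spindle, where TPX2 binds it, switches it on and brings it to microtubules. Aurora B works in the chromosomal passenger complex: INCENP is the scaffold that binds and activates it, while CDCA8 (borealin) and BIRC5 (survivin) carry the complex to centromeres, where it corrects wrong attachments of chromosomes to the spindle. In cycling cells these genes are known to be transcribed mainly in G2 and mitosis.

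Promoter sequence is shown for the 3 of 6 genes that the RefSeq table (GRCh38.p14) holds, INCENP, CDCA8 and AURKB. Whether these sequences bear on the changes below was not tested. Each line gives the 250 bases before the start of transcription, 5′ to 3′ on the gene's strand. Capitals mark matches to the CHR element (cell cycle genes homology region, TTTGAA or TTCGAA) and to the CCAAT box (CCAAT, which reads ATTGG where it lies on the other strand).
INCENP, chr11:62123761-62124010, plus strand: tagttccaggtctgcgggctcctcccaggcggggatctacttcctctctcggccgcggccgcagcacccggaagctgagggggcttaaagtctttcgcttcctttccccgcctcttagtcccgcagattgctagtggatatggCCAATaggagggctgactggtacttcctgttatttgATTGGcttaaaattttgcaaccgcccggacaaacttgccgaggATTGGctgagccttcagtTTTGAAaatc
CDCA8, chr1:37692266-37692515, plus strand: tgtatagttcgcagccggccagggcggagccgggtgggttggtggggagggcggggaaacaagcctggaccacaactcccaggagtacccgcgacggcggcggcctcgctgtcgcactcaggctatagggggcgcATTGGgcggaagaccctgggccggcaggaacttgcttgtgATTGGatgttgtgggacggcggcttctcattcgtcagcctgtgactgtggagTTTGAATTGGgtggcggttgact
AURKB, chr17:8210226-8210475, minus strand: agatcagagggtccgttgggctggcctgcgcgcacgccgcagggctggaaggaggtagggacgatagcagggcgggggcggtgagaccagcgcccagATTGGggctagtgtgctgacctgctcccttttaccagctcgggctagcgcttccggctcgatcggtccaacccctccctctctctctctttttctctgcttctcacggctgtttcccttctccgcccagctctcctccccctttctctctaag
The INCENP promoter held TTTGAA with its first base at position -10 from the start, and CCAAT boxes at -107, -71 and -28. The CDCA8 promoter held TTTGAA at -23 and CCAAT boxes at -115, -75 and -18, and the last of these shares a base with TTTGAA. AURKB has 2 overlapping entries in the table, with the 1 CCAAT match at -153 or -129 according to the start used, and neither entry held TTTGAA or TTCGAA. The E2F-type motif TTTNGCGC, searched on both strands like the others, had no match in any of these entries. Each entry was searched at the full length held in the table, which runs past the start and beyond the bases printed here. Of 35116 promoters searched in this way, 16.4% held a CHR match, 34.6% a CCAAT box, 6.4% both and 1.8% the E2F-type motif. A match is a run of letters and not a measured binding site, and no match says only that these letters are not in the entry searched.

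Library totals ran from 1758747 to 2357561 counts, so at 1 CPM (counts scaled by library size) a gene had about 2 counts, and values of the low genes carry wide counting error. Counts of abundant genes lay mostly on the annotated feature opposite to them: vimentin, VIM, had 1100 ± 111 CPM and VIM-AS1 had 31800 ± 4760 CPM (SD, n = 17). TUBA1B had 197 ± 30.2 CPM and TUBA1B-AS1 had 23800 ± 3340 CPM (SD, n = 17). In both examples the gene's own row held only a small part of the reads. If the same holds for the 6 genes, their values are residual or antisense reads. The strand setting of the counting is not given in the sources used here. In the examples above, the counts lay mostly opposite to the gene. Which strand's reads the values of the 6 genes count is uncertain and was not tested. In GENCODE on GRCh38, no annotated exon of another gene overlaps an exon of any of the 6, on either strand. The pseudogenes AURKAP1, AURKAP2 and AURKBP1 had 0 counts. Libraries of experiment B stood apart, with a chi-square per degree of freedom of 6.78 to 16.5 against A or C of the same condition, compared with 3.19 to 4.37 between A and C. Of the markers of pigment epithelium, RPE65 had 2 counts and RLBP1 had 7 in all 17 libraries, TYR reached 2.49 CPM, OTX2 4.98 CPM and MITF 8.39 CPM. The high values of BEST1 (9880 to 15400 CPM) and PMEL (257 to 445 CPM) lie on features overlapped by FTH1 and CDK2 on the opposite strand. The epithelial keratins KRT8 (2440 to 5220 CPM) and KRT18 (207 to 345 CPM) are overlapped by each other on the opposite strand. Of other epithelial markers, EPCAM reached 0.539 CPM and CDH1 1.19 CPM. Of the blood markers, CD3E had 0 counts and PTPRC had 12 in all (up to 1.82 CPM), and the endothelial gene CDH5 had 0. With the strand uncertain, low values on these rows do not show that a gene was silent.

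Per kilobase of annotated exon, TPX2 and INCENP had the highest values of the 6 genes, with means over all 17 libraries of 14.3 and 12.4 CPM per kb. BIRC5 had 5.01, CDCA8 3.66, AURKB 3.38 and AURKA 2.55 CPM per kb. The rows of the kinase genes were thus the lowest and those of TPX2 and INCENP the highest on this scale. The rows may hold only a minor share of each gene's reads, as for VIM, so this order need not be that of the mRNAs. The number of counts followed, with 1760 for TPX2 and 1897 for INCENP over all libraries against 252 for AURKA and 260 for AURKB, so the tests of the kinases were the least precise. The third Aurora gene, AURKC, which is known from germ cells, had 1 count in arrested cells, 1 in 6 h ATRi cells and 0 in the other conditions, and was not tested.

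At 4 h of release, cells with the ATR inhibitor had higher TPX2 and INCENP values than cells with DMSO, about 1.94-fold and 1.78-fold. The estimates for AURKA (2.06-fold) and CDCA8 (1.85-fold) were as high but did not pass the test over all features, and those for BIRC5 (1.17-fold) and AURKB (1.07-fold) were near 1. In the solvent controls TPX2, INCENP and CDCA8 were higher at 6 h of release than in arrested cells. For CDCA8 this sat at the threshold (edgeR adjusted p = 0.0485) and held in 4 of 17 fits that left out 1 library. AURKB passed no test in any comparison. In these bulk samples, more cells in G2 or mitosis and more transcript in each cell cannot be told apart, here and in every comparison that follows.

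**Figure D1:**
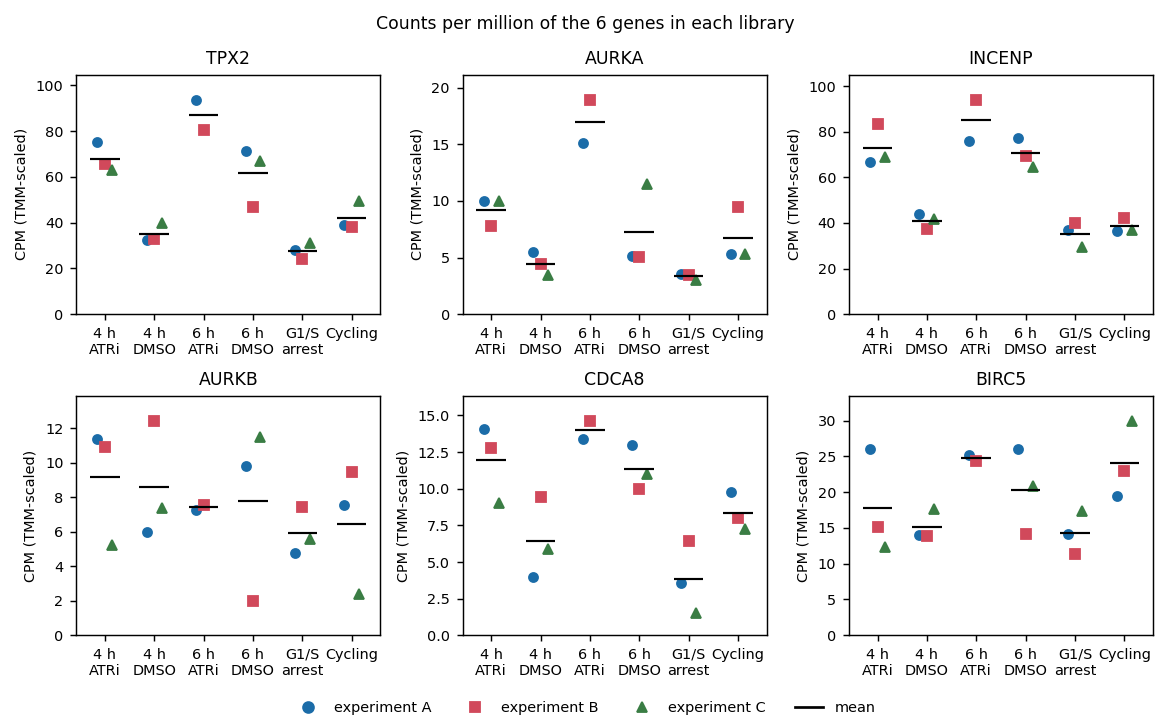
Level of each gene (TMM-scaled CPM, vertical axes starting at 0) in each library, by condition on the horizontal axis; circles, squares and triangles are experiments A, B and C, and black lines are condition means. TPX2 and INCENP lie at 63.1 to 93.8 CPM in the inhibited libraries, above every 4 h DMSO, arrested and cycling library, while AURKB points scatter in every condition with 3 libraries.

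TPX2, the activator of Aurora A, had 75.2, 65.7 and 63.1 CPM in 4 h ATRi cells (experiments A, B and C), against 32.4, 32.7 and 39.9 CPM in 4 h DMSO cells. It had 93.5 and 80.3 CPM in 6 h ATRi cells (A and B), against 71.3, 46.7 and 66.9 CPM in 6 h DMSO cells. Every inhibited library lay above every DMSO library of its time point. Arrested cells had 27.9, 23.9 and 31.0 CPM and cycling cells 39.0, 37.9 and 49.3 CPM. The means fell in the order 6 h ATRi (86.9), 4 h ATRi (68.0), 6 h DMSO (61.6), cycling (42.0), 4 h DMSO (35.0) and arrested cells (27.6). Ranges of neighbours were separate between 6 h and 4 h ATRi and between 4 h DMSO and arrested cells, and overlapped at the other steps.

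AURKA had 10, 7.75 and 9.97 CPM in 4 h ATRi cells, against 5.49, 4.46 and 3.45 CPM in 4 h DMSO cells. It had 15.1 and 18.9 CPM in 6 h ATRi cells, against 5.13, 5.02 and 11.5 CPM in 6 h DMSO cells. Both 6 h ATRi libraries were above all 15 others, and 6 h DMSO cells were split, with experiment C at more than the level of A and B together. Arrested cells had the lowest and closest values, 3.56, 3.48 and 3.05 CPM, and cycling cells had 5.32, 9.46 and 5.31 CPM. In this order of means, only the 6 h ATRi range was separate from that of its neighbour. These values rest on 6 to 35 counts a library.

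INCENP, the scaffold of the passenger complex, had 66.6, 83.5 and 68.8 CPM in 4 h ATRi cells, against 43.9, 37.2 and 41.8 CPM in 4 h DMSO cells. It had 76.1 and 93.8 CPM in 6 h ATRi cells, against 77.4, 69.3 and 64.7 CPM in 6 h DMSO cells. The 4 h groups were separate and the 6 h groups overlapped. Arrested cells had 36.8, 39.8 and 29.5 CPM and cycling cells 36.4, 42.3 and 36.7 CPM. The conditions fell into a high set (6 h ATRi, 4 h ATRi and 6 h DMSO, with means of 85.0, 73.0 and 70.4 CPM) and a low set (4 h DMSO, cycling and arrested cells, with 41.0, 38.5 and 35.3 CPM). Neighbours overlapped within each set, and the sets were separate.

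AURKB, the kinase of the complex, had 11.4, 10.9 and 5.22 CPM in 4 h ATRi cells, against 5.99, 12.4 and 7.38 CPM in 4 h DMSO cells. It had 7.28 and 7.55 CPM in 6 h ATRi cells, against 9.79, 2.01 and 11.5 CPM in 6 h DMSO cells. Within each pair the groups overlapped. Arrested cells had 4.75, 7.46 and 5.59 CPM and cycling cells 7.54, 9.46 and 2.41 CPM. All neighbours in the order of means, which ran only between 9.19 and 5.93 CPM, overlapped. The lowest library, 6 h DMSO of experiment B, held 4 counts.

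CDCA8 (borealin) had 14.1, 12.8 and 9.02 CPM in 4 h ATRi cells, against 3.99, 9.41 and 5.91 CPM in 4 h DMSO cells. It had 13.4 and 14.6 CPM in 6 h ATRi cells, against 13.0, 10 and 11.0 CPM in 6 h DMSO cells. At 4 h the groups overlapped through 1 library on each side, and at 6 h they were separate by a small margin. Arrested cells had 3.56, 6.46 and 1.52 CPM and cycling cells 9.75, 7.97 and 7.24 CPM, and these were separate. The arrested libraries held only 3 to 13 counts each.

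BIRC5 (survivin), also an inhibitor of apoptosis protein, had 26.0, 15.1 and 12.3 CPM in 4 h ATRi cells, against 14.0, 13.9 and 17.7 CPM in 4 h DMSO cells. It had 25.2 and 24.3 CPM in 6 h ATRi cells, against 26.1, 14.1 and 20.8 CPM in 6 h DMSO cells. Both pairs overlapped, and the libraries of experiment A were the highest in 3 of the 4 released conditions. Arrested cells had 14.2, 11.4 and 17.3 CPM and cycling cells 19.5, 22.9 and 29.9 CPM, which were separate. BIRC5 was the only gene of the 6 whose cycling cells ranked second among the conditions.

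The inhibitor response at 4 h was called for 2 of 6 genes, with a call meaning an adjusted p under 0.05 in edgeR over all 13510 features, of which 0.311% were called in this comparison. TPX2 was higher in 4 h ATRi than in 4 h DMSO cells by 0.96 ± 0.19 on the log2 scale (SE; adjusted p = 0.0206), with 68.0 ± 6.38 against 35.0 ± 4.22 CPM (SD, n = 3 each). INCENP was higher by 0.83 ± 0.18 (adjusted p = 0.0331), with 73.0 ± 9.18 against 41.0 ± 3.47 CPM (SD, n = 3 each). Both rose within each of the 3 experiments, by 1.2, 1.00 and 0.66 for TPX2 and 0.59, 1.16 and 0.71 for INCENP in A, B and C (log2 ratio of CPM + 0.5). With experiment B left out, TPX2 was still called (0.94, adjusted p = 0.00437, among 85 features called) and INCENP was not (0.67, adjusted p = 0.138).

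The other 4 genes did not pass at 4 h. AURKA was at 1.04 ± 0.40 (95% interval 0.21 to 1.87, adjusted p = 0.681) and CDCA8 at 0.89 ± 0.39 (interval 0.10 to 1.68, adjusted p = 0.796), and both were positive in 3 of 3 experiments. BIRC5 was at 0.23 ± 0.30 (interval -0.38 to 0.84, adjusted p = 1) and AURKB at 0.10 ± 0.48 (interval -0.89 to 1.09, adjusted p = 1). BIRC5 was positive in 2 experiments and AURKB in 1. A p that misses the threshold does not show that the levels were alike, and the AURKB interval includes a change as large as that of TPX2. All 6 estimates were positive with a median of 0.86, against a median of -0.01 over all features, of which 49.1% were positive. Groups that did not overlap, with ATRi higher, were found for 3 of 6 genes (AURKA, INCENP and TPX2) and for 5.5% of all features.

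In edgeR without the block, the 4 h calls were close to the threshold. DESeq2, also without a block, gave adjusted p = 0.00313 for TPX2 and 0.00562 for INCENP. The fits that follow, up to the block, are edgeR with libraries left out. TPX2 lost its call without experiment A of 4 h ATRi (adjusted p = 0.149) or without A, B or C of 4 h DMSO (0.109, 0.109 and 0.0588). INCENP lost its call without A or B of 4 h ATRi (0.0722 and 0.203) or A, B or C of 4 h DMSO (0.0788, 0.183 and 0.141). Its log2 change stayed between 0.74 and 0.90, and that of TPX2 between 0.89 and 1.07, over all 17 libraries left out in turn. With the experiment as a block, which called 1.75% of features, the same 2 genes were called (adjusted p = 3.21e-05 for TPX2 and 0.000368 for INCENP).

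**Figure D2:**
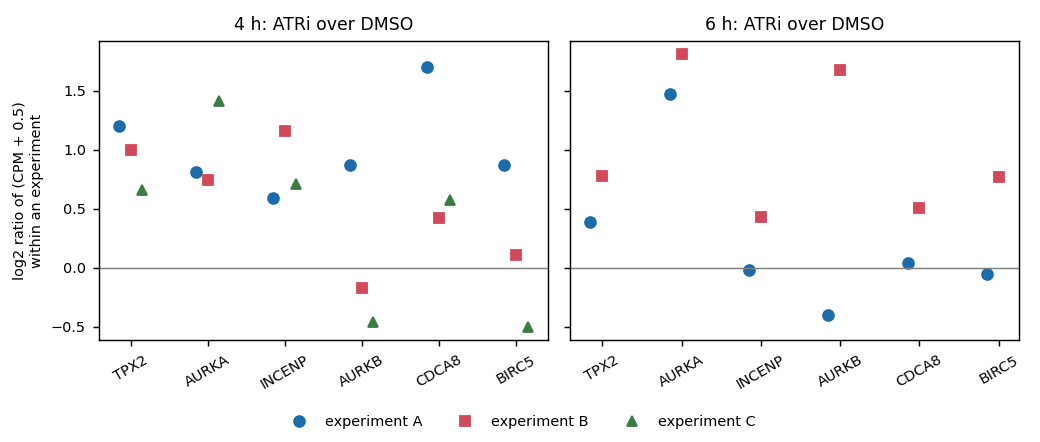
Log2 ratio of (CPM + 0.5), ATRi over DMSO, within each experiment (circle A, square B, triangle C) for the 6 genes at 4 h (left) and 6 h (right; A and B only); the grey line marks no difference. TPX2, AURKA, INCENP and CDCA8 are above 0 in every experiment at 4 h, and the AURKB and BIRC5 points fall on both sides of 0 at both times.

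At 6 h no gene of the 6 was called between ATRi and DMSO cells by edgeR, with the block or by DESeq2, which gave no adjusted p for 4 of them. The background was 0.0074% of features called, or 0.533% with the block. AURKA was at 1.24 ± 0.41 (interval 0.41 to 2.08, adjusted p = 0.743). It had 17.0 ± 2.65 CPM (SD, n = 2) in 6 h ATRi and 7.22 ± 3.71 CPM (SD, n = 3) in 6 h DMSO cells. Its ratios in A and B were 1.47 and 1.81. These ratios leave out experiment C, which has no 6 h ATRi library here and had the highest 6 h DMSO value, 11.5 CPM. Without that DMSO library the edgeR change of AURKA was 1.73. TPX2 was at 0.49 ± 0.21 (interval 0.07 to 0.92, adjusted p = 1), and positive in A and B. INCENP (0.27), BIRC5 (0.28), CDCA8 (0.30) and AURKB (-0.06) had intervals on both sides of 0. AURKA, CDCA8 and TPX2, 3 of 6, had groups that did not overlap with ATRi higher, against 9.9% of features at these group sizes.

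The inhibitor responses at 6 h and at 4 h were also set against each other in the same fit. No gene of the 6 was called by edgeR, with the block or by DESeq2. Over all features 0% were called, and 0.0444% with the block. INCENP had the lowest p, with a response smaller at 6 h than at 4 h by -0.56 ± 0.26 (interval -1.10 to -0.02, adjusted p = 1). The estimate was -0.46 ± 0.29 for TPX2 and 0.20 ± 0.59 for AURKA. The 4 h calls are therefore not shown to differ from the 6 h responses, for which 2 inhibited libraries were available.

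Without inhibitor, the genes were compared between 6 h and 4 h of release. No gene was called by edgeR (0.0814% of features were), and DESeq2 called 1, INCENP. INCENP was higher at 6 h by 0.78 ± 0.18 (adjusted p = 0.0939), with 70.4 ± 6.43 against 41.0 ± 3.47 CPM at 4 h (SD, n = 3 each). TPX2 was at 0.81 ± 0.20 (adjusted p = 0.119), with 61.6 ± 13.1 against 35.0 ± 4.22 CPM (SD, n = 3 each). Read as experiments, the letters pair the libraries, and with the experiment as a block both were called (adjusted p = 0.00149 for INCENP and 0.00176 for TPX2), with 1.04% of features. Both were positive in 3 of 3 experiments. CDCA8 was at 0.81 ± 0.39 (interval 0.01 to 1.61, adjusted p = 0.996) and had groups that did not overlap, and AURKA was at 0.67 ± 0.42 with 2 of 3 experiments positive. BIRC5 was at 0.42 ± 0.30 and AURKB at -0.15 ± 0.49. Without experiment B, TPX2 was called (0.94, adjusted p = 0.00481, among 82 features), as it was without B of 6 h DMSO alone (adjusted p = 0.0476), and the AURKB estimate turned to 0.67.

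In the inhibitor, the step from 4 h to 6 h was 0.35 ± 0.21 for TPX2 and 0.22 ± 0.19 for INCENP, with intervals on both sides of 0. Whether it differs from the step without inhibitor is the same contrast as the difference of responses above, which passed for no gene. No gene was called between 6 h ATRi and 4 h ATRi by edgeR, with the block or by DESeq2, which gave no adjusted p for 3 of them (background 0.0296%, and 1.24% with the block). AURKA was at 0.87 ± 0.40 (interval 0.06 to 1.69, adjusted p = 0.768), with 17.0 ± 2.65 CPM (SD, n = 2) against 9.25 ± 1.3 CPM (SD, n = 3). CDCA8 was at 0.22 ± 0.40, BIRC5 at 0.47 ± 0.32 and AURKB at -0.31 ± 0.56, all with intervals on both sides of 0.

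**Figure D3:**
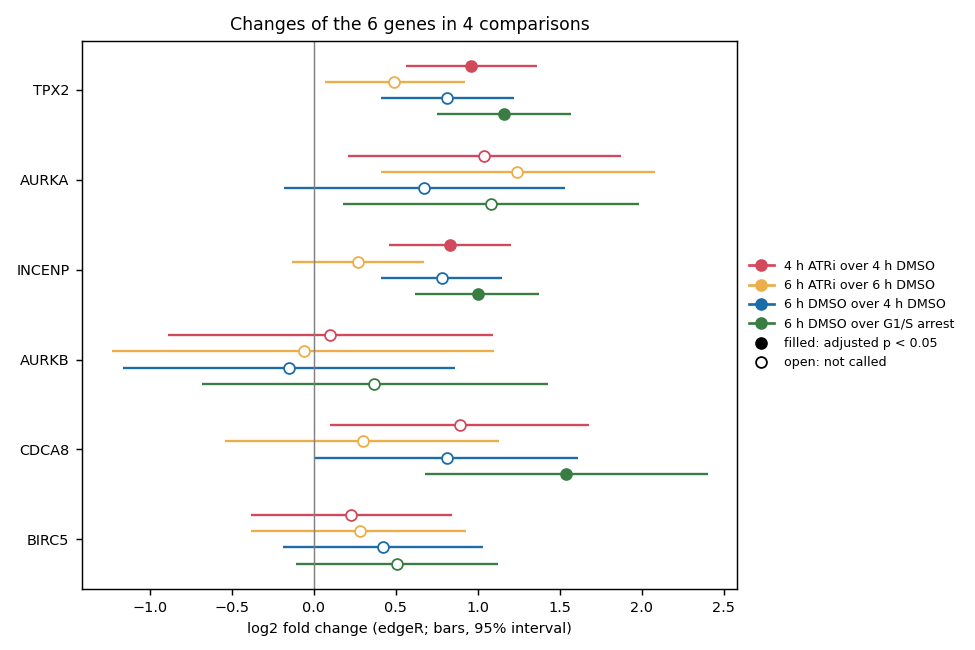
Log2 fold change of each gene (horizontal axis; bars, 95% interval) in 4 comparisons, tested condition over the condition named after it; filled points were called at an adjusted p under 0.05. TPX2 and INCENP are called at 4 h and against arrest, CDCA8 against arrest, and the AURKB and BIRC5 intervals include 0 in all 4.

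Against arrested cells, DMSO cells at 6 h had higher TPX2, INCENP and CDCA8 values, and DMSO cells at 4 h had no called gene. At 6 h 3 of 6 genes were called, with 2.32% of features (7.71% with the block, which called the same 3). TPX2 was higher by 1.16 ± 0.20 (adjusted p = 0.00109), with 61.6 ± 13.1 against 27.6 ± 3.58 CPM, and INCENP by 1.00 ± 0.18 (adjusted p = 0.00197), with 70.4 ± 6.43 against 35.3 ± 5.30 CPM (SD, n = 3 each). Both stayed called in all 17 fits that left out 1 library. CDCA8 was higher by 1.54 ± 0.42 (adjusted p = 0.0485), with 11.4 ± 1.54 against 3.85 ± 2.48 CPM (SD, n = 3 each). Leaving out 1 library moved this change between 1.16 (without arrested cells of C) and 2.19 (without arrested cells of B). Its call sat at the threshold and was kept in 4 of 17 such fits, with the adjusted p reaching 0.285 without arrested cells of experiment C and lying between 0.0512 and 0.161 for the other losses. Without experiment B it was 2.28 (adjusted p = 0.00188, among 771 features). AURKA was at 1.08 ± 0.44 (interval 0.18 to 1.98, adjusted p = 0.276) with groups that did not overlap, BIRC5 at 0.51 ± 0.30 and AURKB at 0.37 ± 0.51.

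At 4 h, against the same arrested libraries, the estimates were positive for 6 of 6 genes, with a median of 0.37 against 0 over all features. No gene was called by edgeR, with the block or by DESeq2, which gave no adjusted p for 3 of them (background 0.74%, and 4.77% with the block). CDCA8 was at 0.73 ± 0.44 (interval -0.18 to 1.64), or at 1.36 without arrested cells of B and 0.34 without those of C. TPX2 was at 0.34 ± 0.21 (interval -0.08 to 0.77) and AURKB at 0.52 ± 0.51 (interval -0.52 to 1.57). INCENP was at 0.21 ± 0.19 and BIRC5 at 0.09 ± 0.31.

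Arrested cells were lower than cycling cells in all 6 estimates, with a median of -0.68 against -0.01 over all features. No gene was called by edgeR (1.03% of features were) or by DESeq2. TPX2 had 27.6 ± 3.58 CPM in arrested and 42.0 ± 6.28 CPM in cycling cells (SD, n = 3 each), a change of -0.61 ± 0.20 (adjusted p = 0.219). With the experiment as a block TPX2 was called (adjusted p = 0.0346), with 5.64% of features. CDCA8 was at -1.10 ± 0.43 (interval -1.98 to -0.21), or at -1.71 without arrested cells of B. AURKA was at -0.98 ± 0.44 (interval -1.88 to -0.08) and BIRC5 at -0.75 ± 0.30 (interval -1.35 to -0.14). For these 4 of 6 genes every arrested library lay below every cycling one, as it did for 8.62% of features. INCENP, at -0.12 ± 0.19 (interval -0.51 to 0.26), and AURKB, at -0.12 ± 0.52, overlapped.

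DMSO cells at 6 h were higher than cycling cells in INCENP, by 0.87 ± 0.18 (adjusted p = 0.0133), with 70.4 ± 6.43 against 38.5 ± 3.36 CPM (SD, n = 3 each). It was the 1 gene of 6 called, with 1.04% of features. It lost its call without A of 6 h DMSO (adjusted p = 0.0650) or A or C of cycling cells (0.0781 and 0.0518). TPX2 was at 0.55 ± 0.19 (adjusted p = 0.221) and was called with the block (adjusted p = 0.0292, with 6.29% of features) and without experiment B (0.69, adjusted p = 0.0378, among 376 features). CDCA8 was at 0.44 ± 0.38, AURKB at 0.26 ± 0.50, AURKA at 0.10 ± 0.40 and BIRC5 at -0.24 ± 0.28, all with intervals on both sides of 0.

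The fold changes of comparisons above that use the same libraries, such as the 4 h DMSO cells in both 4 h ATRi against DMSO and 6 h against 4 h DMSO, are not independent of each other.

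In the authors' deposited table, 4 h ATRi over 4 h DMSO was 0.87 for TPX2 (adjusted p = 0.00214) and 0.78 for INCENP (adjusted p = 0.00296). The authors' deposited table gave 0.67 for AURKA, 0.63 for CDCA8 and 0.07 for AURKB with no adjusted p, and 0.18 for BIRC5. Each of these 4 h values was smaller than the edgeR estimate, which was 1.04 for AURKA and 0.89 for CDCA8. The reason was not tested. Its time comparison runs 4 h DMSO over 6 h DMSO, so negative values mean lower at 4 h: the authors' deposited table gave -0.73 for INCENP (adjusted p = 0.0097) and -0.74 for TPX2 (adjusted p = 0.0273). In edgeR over all libraries without the block, the adjusted p for that comparison was 0.0939 for INCENP and 0.119 for TPX2.

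Across the 17 libraries, with the mean of each experiment removed from log2 CPM, TPX2 and INCENP moved together most closely (Pearson r = 0.92). TPX2 had r = 0.86 with CDCA8, 0.83 with AURKA and 0.58 with BIRC5. AURKB had r of 0.13 to 0.29 with the other 5 genes. These points share libraries and conditions, and the lowest genes carry the most counting error, so the values describe these data and carry no test. The libraries' summed levels of the 6 genes were 203, 196 and 169 CPM in 4 h ATRi cells against 106, 110 and 116 CPM in 4 h DMSO cells, and 231 and 239 CPM in 6 h ATRi cells against 203, 147 and 186 CPM in 6 h DMSO cells.

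Of all 13510 features, those most like TPX2 over the 17 libraries were ARHGAP11A (r = 0.97), CLCC1 (0.97), MATCAP2 (0.96), MYH11 (0.96) and CENPF (0.96), the last a kinetochore protein. Several of these lie opposite to other genes: CLCC1 to GPSM2, MATCAP2 to ANLN and MYH11 to NDE1, so their counts are uncertain as to the gene, as are those of ARHGAP11A, opposite to AC123768.3. AURKA was most like KIF5B (0.90), the kinase NEK2 (0.89), the midbody protein CEP55 (0.89) and cyclin B1, CCNB1 (0.87), beside 1 feature without a symbol. INCENP was most like GNB3 (0.94, opposite to CDCA3), MYH11 (0.94), LGALS3 (0.94), the spindle checkpoint protein BUB3 (0.93) and the CENP-A chaperone HJURP (0.93, opposite to MROH2A). CDCA8 was most like STARD8 (0.91), SOGA1 (0.91), the importin KPNA2 (0.88) and TUBA1A (0.87, opposite to TUBA1C), beside 1 without a symbol. The highest values for BIRC5 were lower, XPO1 at 0.84 (opposite to AC016727.1), DNTTIP2, EIF2AK1 (opposite to AIMP2) and JMY at 0.80, with 1 unnamed at 0.81. For AURKB they were PPP1R37 (0.85), TUFM (0.82), SRRM1 (0.81) and RPUSD1 (0.75, opposite to CHTF18), with 1 unnamed at 0.75. The mean of the 6 standardised genes was closest to CENPF and ARHGAP11A (0.93 each), NEK2 (0.91), CKAP2 and CLCC1 (0.90 each).

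A list of 36 other genes that act on or under the Aurora kinases gave 32 tested genes; AURKC, DSN1, KLHL13 and PPP6C did not pass the filter. At 4 h, 1 gene was higher in ATRi than in DMSO cells, 0 were lower and 31 did not pass, where 0.311% of all features were called, and the median change was 0.52 against -0.01 over all features. The 1 was PLK1, the mitotic kinase that Aurora A activates, with 31.5 ± 6.40 against 10.9 ± 1.8 CPM (SD, n = 3 each) and a change of 1.53 ± 0.30 (adjusted p = 0.0125). PLK1's row is overlapped on the opposite strand by AC008870.3 and ERN2, so its count is uncertain as to the gene. With the block, which called 1.75% of all features, 7 genes were higher and 0 lower, PLK1 and 6 more. Those are TACC3, a spindle substrate of Aurora A; the phosphatase CDC25B; the kinesin KIF20A, which carries the passenger complex to the midzone; the kinetochore proteins KNL1 and CENPA; and CDC20, an activator of the anaphase-promoting complex.

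By role, the median 4 h change was 1.02 for the Aurora B substrates (6 tested), 0.59 for genes that place the passenger complex (5), 0.58 for activators, partners and substrates of Aurora A (11), 0.48 for genes of removal by ubiquitin ligases (5) and 0.31 for opposing phosphatases (4). Of the 32 tested genes, 25 had a positive 4 h change. The negative estimates in the Aurora A group were NEDD9 (-0.53 ± 0.70), BORA (-0.37 ± 0.23), AJUBA (-0.36 ± 0.34) and CEP192 (-0.32 ± 0.57). BORA, the cofactor through which Aurora A acts on PLK1, had exons overlapped by DIS3. In other groups CUL3 was at -0.53 ± 0.30, PPP1CA at -0.29 ± 0.25 and AURKAIP1, a gene named for binding Aurora A, at -0.33 ± 0.28. NEDD9, CUL3 and PPP1CA are also overlapped on the opposite strand. None of these negative changes was called.

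**Figure D4:**
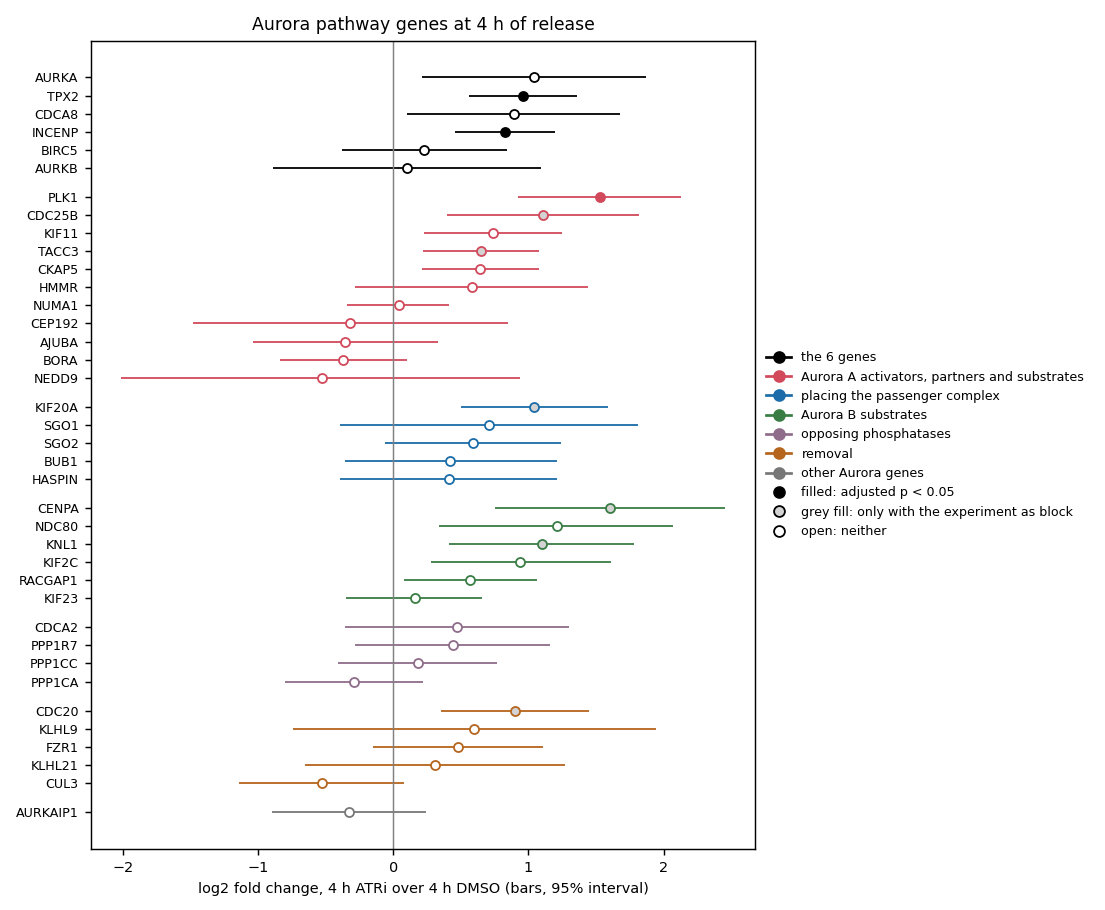
Log2 fold change, 4 h ATRi over 4 h DMSO (horizontal axis; bars, 95% interval), for the 6 genes (top, black) and for the 32 tested genes of the Aurora list, coloured by role; fill shows the call. PLK1 is the 1 listed gene called without the block, 6 more are called only with it, and most other intervals include 0.

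At 6 h, 0 of the 32 listed genes were called between ATRi and DMSO cells, with or without the block. The median change was 0.28 against 0.01 over all features. The 3 with the smallest p were KIF20A, at 0.87 ± 0.28 (adjusted p = 0.741) with 48.0 ± 6.87 CPM (SD, n = 2) against 26.1 ± 4.99 CPM (SD, n = 3), CDC20, at 0.62 ± 0.28, and the microtubule polymerase CKAP5, at 0.50 ± 0.23 (adjusted p = 1 for both). KIF20A is overlapped by BRD8 and CDC23 on the opposite strand. In 6 h DMSO against arrested cells 9 of 32 were higher and 0 lower, with a median of 0.87, where 2.32% of all features were called. With the block 12 were higher and 1 lower, where 7.71% of all features were called. In arrested against cycling cells, where 1.03% of all features were called and 5.64% with the block, 0 were higher and 3 lower (6 lower with the block), with a median of -0.36. The 3 were PLK1 (-1.94 ± 0.35), CENPA (-3.09 ± 0.59) and CDC20 (-1.72 ± 0.30). CENPA shares part of its exons with SLC35F6 on the same strand.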

How the data were processed

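The deposited files hold raw counts of reads for each gene ID, and the authors' log2 fold changes with adjusted p-values. The submitters' processing notes name TopHat, HTSeq, DESeq2 and the build GRCh37; no version, annotation release or strand setting is given in the sources used here. Of 60252 IDs, 55528 were matched to symbols in a name table. Exon lengths and overlaps came from exon coordinates of GENCODE on GRCh38, not on the GRCh37 build that the processing notes name.

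The 17 libraries (1758747 to 2357561 counts; mean 2032000 ± 179400, SD) were fitted once in edgeR 4.0.16 (R 4.3.3): TMM scaling, 1 mean per condition and the two-sided quasi-likelihood test with robust dispersions, after filterByExpr (counts of at least 10, total of at least 15). P-values were adjusted by Benjamini-Hochberg over all 13510 features, with calls under 0.05. CPM are TMM-scaled; changes are log2 ± SE. This left 11 residual degrees of freedom, or 9 with the experiment as a block. Likeness used log2 CPM with a prior count of 2. The steps were tested on simulated data. DESeq2 1.42.0 was an alternative. Nothing beyond the design text's independent experiments says how cultures were separated, and p-values measure the spread between these libraries. The counts carry no molecular identifiers.

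The column letters were read as the design text's 3 independent experiments. Same-letter libraries deviated together from their condition means, with a correlation across features over 0.1 in 21 of 22 pairs (0.081 to 0.534). The common coefficient of variation between libraries was 11.9% with the block and 23% without it.

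The genes and lists were chosen with earlier results of these data known. Named were the 6 genes, listed Aurora genes called in the inhibitor comparisons or otherwise the 3 with the smallest p, and the 5 features most like each gene. PLK1, CENPA and CDC20 in arrested cells and the genes called with the block were named after their values were seen. So were BORA, AURKAIP1 and the other listed genes with negative 4 h changes. Alternatives were another normalisation, no filter, DESeq2, the block, experiment B left out and each library left out.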

Additional observations from a re-analysis of the deposited data

How the results depend on the processing

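Of 1188 values of the 6 genes' changes under the alternatives, 1123 kept their direction and side of the threshold, 27 lost a call, 8 gained one and 30 changed sign; the cause was not tested. No value that was called changed sign. The number of genes called at 4 h between ATRi and DMSO was 2, and 1 with no filter on low counts or with experiment B left out, and 0 to 2 with single libraries left out. For 6 h against 4 h DMSO it was 0, 1 with DESeq2, 2 with the replicate block, 1 without experiment B, and 0 to 1 with single libraries left out. The block gave 1 instead of 0 for arrested against cycling cells, and 2 instead of 1 for 6 h DMSO against cycling cells, where leaving out B gave 2 and leaving out single libraries 0 to 1. For 6 h DMSO against arrested cells the count was 3, and 2 to 3 with single libraries left out. The block changed no other call of the 6 genes.

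Without experiment B, the sign changed for AURKB in 6 h against 4 h DMSO (0.67) and in arrested against cycling cells (0.06), and in the difference of responses for AURKA (-0.28) and BIRC5 (-0.19). Leaving out single libraries gave sign changes within these ranges. At 4 h between ATRi and DMSO, AURKB ran from -0.09 to 0.46 and BIRC5 from -0.14 to 0.45. At 6 h AURKB ran from -0.51 to 0.31. In 6 h against 4 h DMSO, AURKB ran from -0.52 to 0.30. In 4 h DMSO against arrested cells, BIRC5 ran from -0.05 to 0.25. In arrested against cycling cells, AURKB ran from -0.48 to 0.27 and INCENP from -0.21 to 0.03. In 6 h DMSO against cycling cells, AURKA ran from -0.35 to 0.47 and AURKB from -0.09 to 0.71. In the difference of responses, AURKA ran from -0.02 to 0.68, AURKB from -0.61 to 0.20 and BIRC5 from -0.18 to 0.41.

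Summing each gene with its opposite-strand features was not run, since none of the 6 has one. With a 6 h ATRi library or experiment B left out, that condition has 1 library, assumed to vary like the others. Depth limits AURKA, AURKB and CDCA8, with 3 to 35 counts a library.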
